A study of Mus musculus with 8 samples.

Results

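The genes described here are 10 genes of prohormone processing and secretory granule content: *Pcsk1*, *Pcsk2*, *Pcsk1n*, *Scg5*, *Cpe*, *Chga*, *Chgb*, *Scg2*, *Scg3* and *Slc30a8*. They were chosen by name, with earlier results of these data known. Every probe whose accession maps to one of these symbols was taken, the brightest first. They are 10 of 21154 genes with a named probe and are read by 13 of 55681 probes: 8 genes have 1 probe, *Pcsk2* has 2 and *Cpe* has 3. Islet RNA came from 4 β-CB1R+/+ and 3 β-CB1R-/- mice and was read on 8 one-colour arrays, with RNA of β-CB1R-/- mouse 2 hybridised on 2 arrays that were averaged. Per the study's methods, β-CB1R-/- mice were *Cnr1* flox/flox with the MIP-Cre/ERT transgene, and β-CB1R+/+ mice were *Cnr1* flox/flox littermates without it. Tamoxifen was given to both groups. All were male mice of strain C57BL/6 on a standard diet, and the age of the mice used for the arrays is not given in the sources used here. MIP-Cre/ERT is driven by an insulin promoter and acts in beta cells, so other islet cells would keep CB1R, and no group carried the Cre transgene without the floxed allele. The samples themselves are labelled CB1 WT and CB1 KO only, and their growth text describes the global knockout, whereas the series' design text gives the beta cell deletion. *Cnr1*, the targeted gene, was lower in all 3 β-CB1R-/- mice than in every β-CB1R+/+ mouse (log2 difference -1.97, SE 0.33; limma adjusted p = 0.193).

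Insulin, glucagon and other islet hormones are made as larger prohormones that are cut inside the secretory granule. The proprotein convertases PC1/3 (*Pcsk1*) and PC2 (*Pcsk2*) cut after pairs of basic residues, and carboxypeptidase E (*Cpe*) then removes the basic residues left at the end. Each convertase has a partner protein: proSAAS (*Pcsk1n*) inhibits PC1/3, and 7B2 (*Scg5*) is needed to bring PC2 to its active form. The granins (*Chga*, *Chgb*, *Scg2*, *Scg3*) are acidic proteins that gather in the forming granule, and the zinc transporter ZnT8 (*Slc30a8*) fills beta cell granules with the zinc that insulin crystals hold. Several of these proteins are found in all endocrine cells of the islet, PC2 being the main convertase of alpha cells, while ZnT8 is most abundant in beta cells. CB1R couples to Gi and lowers cyclic AMP, a messenger that promotes granule release and the transcription of several granule genes.

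Values are log2 intensities with each array's 75th percentile set to 0, and differences are β-CB1R-/- minus β-CB1R+/+. All 13 probes were well above background on all 8 arrays and no spot was saturated. The repeat arrays of β-CB1R-/- mouse 2 differed by a median of 0.054 over the 13 probes and by at most 0.20. Of the 10 genes, 9 had a lower mean in β-CB1R-/- islets and 1, *Chgb*, a higher one, where 55.7% of all 16959 genes compared had a lower mean. The median difference of the 10 genes was -0.49, beside -0.04 for all genes. None of the 13 probes passed the threshold of 0.05 after Benjamini-Hochberg adjustment over all probes in limma (adjusted p 0.831 to 0.999), which 0.11% of all 39165 probes did, and the methods' t-test called 0 as well. At an unadjusted p under 0.05, limma and the methods' t-test each gave 4 of the 13 probes. By brightest probe, these were 3 of the 10 genes (*Cpe*, *Chgb* and *Scg2*), a threshold that 3.9% of all genes passed. In the same 3 genes the groups did not overlap: *Chgb* was higher in every β-CB1R-/- mouse, as for 2.61% of all genes, and *Cpe* and *Scg2* were lower, as for 2.22% of all genes. Nothing in the labels states whether the mice came from separate litters, so p-values measure the spread between these mice.

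**Figure D1:**
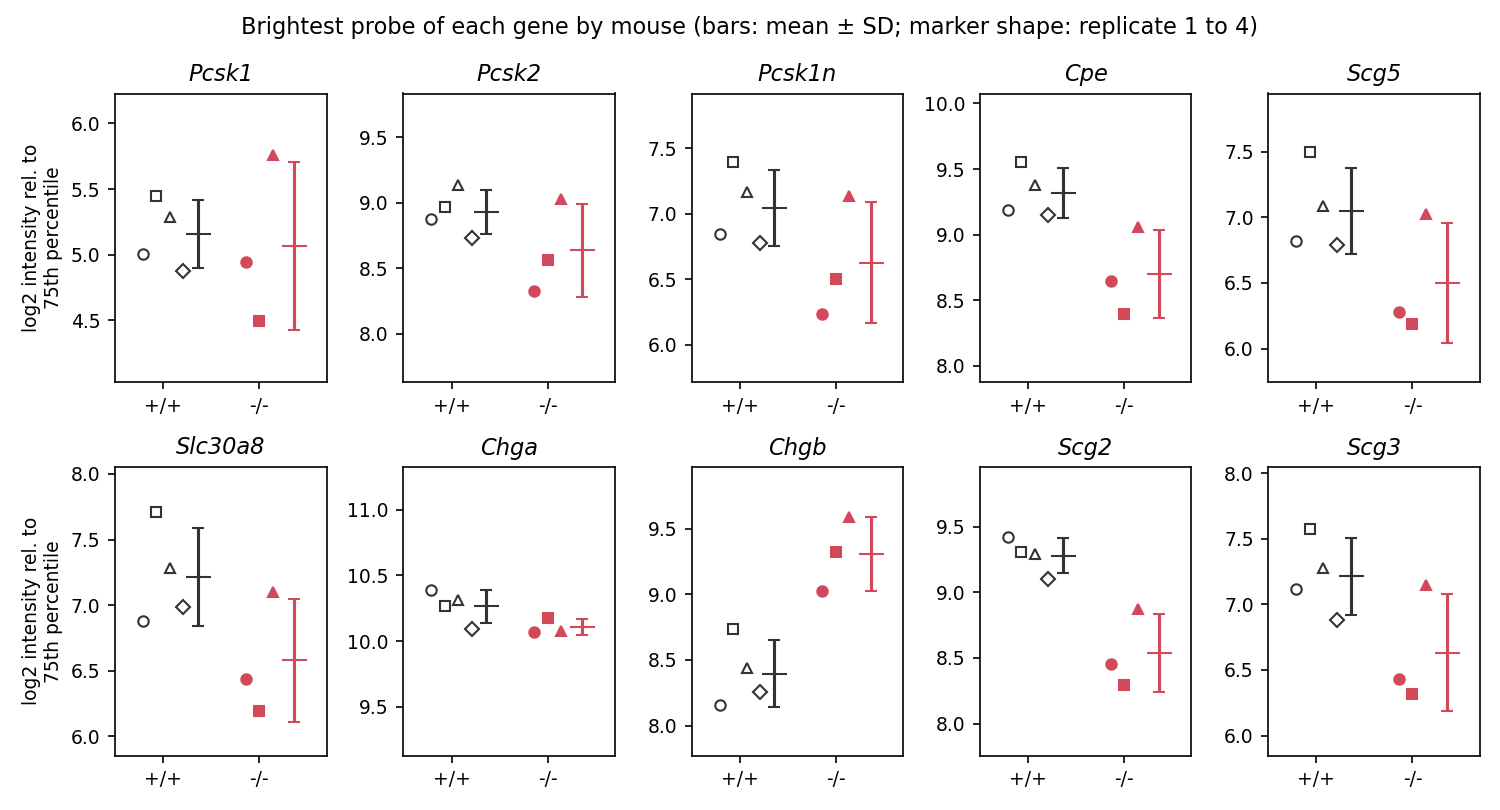
Log2 intensity relative to the array's 75th percentile for the brightest probe of each of the 10 genes (vertical axes, log2 units of equal span), with β-CB1R+/+ mice as open dark symbols, β-CB1R-/- mice as filled red symbols, and the mean ± SD beside each group (n = 4 and n = 3). The groups separate for *Chgb*, *Cpe* and *Scg2*, while in the other 7 genes β-CB1R-/- mouse 3 (triangle) lies among the β-CB1R+/+ mice or above them, except in *Chga*, whose order of mice is not read.

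The convertase *Pcsk1*, which makes the first cuts in proinsulin, had the widest spread among β-CB1R-/- mice. It was 5.01, 5.45, 5.29 and 4.88 in β-CB1R+/+ mice 1 to 4 and 4.95, 4.50 and 5.76 in β-CB1R-/- mice 1 to 3. β-CB1R-/- mice thus held both the lowest and the highest value of all 7, a 2.40-fold range, and enclosed the whole control group. The means were 5.16 ± 0.26 (SD, n = 4) and 5.07 ± 0.64 (SD, n = 3), a difference of -0.09 (SE 0.32; 95% interval -0.82 to 0.65; limma adjusted p = 0.999), so that a change within those bounds could not be told from 0. The sign of this difference turned when β-CB1R+/+ mouse 2 or β-CB1R-/- mouse 2 was left out, and without β-CB1R-/- mouse 3 it was -0.43.

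*Pcsk2*, the convertase that completes proinsulin cleavage and makes glucagon, was 8.87, 8.96, 9.14 and 8.73 in β-CB1R+/+ mice 1 to 4 and 8.33, 8.56 and 9.02 in β-CB1R-/- mice 1 to 3. β-CB1R-/- mice 1 and 2 lay below every control, and mouse 3 among them. The difference was -0.29 (SE 0.23; 95% interval -0.81 to 0.23; exact permutation p = 0.200, two-sided). Its dimmer probe gave 5.53, 6.19, 6.01 and 5.77 in controls and 5.41, 5.34 and 6.19 in β-CB1R-/- mice, the same order of groups with a difference of -0.23 (SE 0.28). The brighter probe's difference was -0.13 without β-CB1R-/- mouse 1 and -0.48 without mouse 3. That of the dimmer probe was -0.12 without control mouse 2, -0.11 and -0.08 without β-CB1R-/- mouse 1 or 2, and -0.50 without mouse 3. Quantile normalization gave -0.51 for the brighter probe. With another background correction (normexp), the brighter probe's difference was 0.11, so its direction is not settled.

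The partners of the convertases followed the same division of mice. *Pcsk1n*, whose product proSAAS inhibits PC1/3, was 6.85, 7.40, 7.16 and 6.78 in β-CB1R+/+ mice 1 to 4 and 6.24, 6.50 and 7.13 in β-CB1R-/- mice 1 to 3 (difference -0.42, SE 0.28; 95% interval -1.06 to 0.22). *Scg5*, which encodes the PC2 chaperone 7B2, was 6.82, 7.50, 7.09 and 6.79 in controls and 6.28, 6.19 and 7.02 in β-CB1R-/- mice (difference -0.55, SE 0.28; 95% interval -1.21 to 0.11; exact permutation p = 0.143, two-sided). The *Pcsk1n* difference was -0.23 without β-CB1R-/- mouse 1 and -0.67 without β-CB1R-/- mouse 3. In both genes β-CB1R-/- mice 1 and 2 were below all controls and mouse 3 was within the control range.

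*Cpe*, the carboxypeptidase that follows both convertases, was lower in every β-CB1R-/- mouse by its 2 bright probes. The brightest probe read 9.19, 9.56, 9.38 and 9.15 in β-CB1R+/+ mice 1 to 4 and 8.64, 8.40 and 9.06 in β-CB1R-/- mice 1 to 3. The groups did not overlap, although β-CB1R-/- mouse 3 came close to β-CB1R+/+ mice 4 and 1. The means of 9.32 ± 0.19 (SD, n = 4) and 8.70 ± 0.34 (SD, n = 3) differed by -0.62 (SE 0.23; 95% interval -1.14 to -0.10), or 65.2% of the control level. The unadjusted limma p was 0.0259, the adjusted p 0.999, and the exact permutation p over the 35 splits of the mice was 0.0286 (two-sided), the smallest it can give and not adjusted for the 10 genes. The second probe gave 9.22, 9.77, 9.30 and 9.13 against 8.54, 8.31 and 9.10, again without overlap (difference -0.70, SE 0.26). Here β-CB1R-/- mouse 3 and control mouse 4 lay closer than the repeat arrays of β-CB1R-/- mouse 2 (0.09 apart). The 75th percentile was highest in β-CB1R-/- mouse 3 (362.1), so the separation by the bright probes rests on the scaling. The third, a dimmer probe, ranged from 4.69 to 5.60 in controls against 4.57, 4.11 and 5.08 in β-CB1R-/- mice 1 to 3, of which mouse 3 lay within the control range (difference -0.54, SE 0.30, and -0.30 without β-CB1R-/- mouse 2). The 3 probes read one gene in the same mice and are not separate evidence. The unadjusted limma p of the brightest probe rose above 0.05 when β-CB1R+/+ mouse 2 (0.0624) or 3 (0.0634), or β-CB1R-/- mouse 1 (0.0671) or 2 (0.0987), was left out. It was also above 0.05 with quantile normalization (0.0647) and with the replicate number as a block (0.0539).

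Among the granins, *Chgb* and *Scg2* separated the genotypes in opposite directions. *Chgb*, which encodes chromogranin B, was 8.15, 8.74, 8.44 and 8.25 in β-CB1R+/+ mice 1 to 4 and 9.02, 9.32 and 9.59 in β-CB1R-/- mice 1 to 3. Every β-CB1R-/- mouse was above every control. The means of 8.40 ± 0.26 (SD, n = 4) and 9.31 ± 0.28 (SD, n = 3) differed by 0.91 (SE 0.23; 95% interval 0.38 to 1.44), a 1.88-fold higher level (1.31 to 2.72). The unadjusted limma p of 0.00408 ranked the probe 188th of 39165, and the adjusted p was 0.831. The exact permutation p was 0.0286 (two-sided). The *Chgb* probe is printed in 10 spots on each array, and the SD between spots of an array, a technical spread only, was 0.03 to 0.20. With quantile normalization *Chgb* was still higher, by 0.75, with an unadjusted limma p of 0.103.

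*Scg2*, which encodes secretogranin II, was 9.42, 9.31, 9.29 and 9.10 in β-CB1R+/+ mice 1 to 4 and 8.45, 8.29 and 8.87 in β-CB1R-/- mice 1 to 3. Every β-CB1R-/- mouse was below every control, mouse 3 least so. The means of 9.28 ± 0.13 (SD, n = 4) and 8.54 ± 0.30 (SD, n = 3) differed by -0.74 (SE 0.21; 95% interval -1.22 to -0.26), or 59.8% of the control level. The unadjusted limma p was 0.00748, rank 285 of all probes, the adjusted p 0.999, and the exact permutation p 0.0286 (two-sided).

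The other granins did not separate. *Chga*, which encodes chromogranin A, was 10.39, 10.26, 10.32 and 10.09 in β-CB1R+/+ mice 1 to 4 and 10.07, 10.18 and 10.08 in β-CB1R-/- mice 1 to 3. The difference was -0.16 (SE 0.18; 95% interval -0.56 to 0.25), and -0.31 with quantile normalization. The unscaled intensity of *Chga* ran only from 272404.9 to 390758.7, while the 75th percentile that divides it ran from 235.5 to 362.1 and was highest in β-CB1R-/- mouse 3, so neither its small spread nor its order of mice is read. *Scg3*, which encodes secretogranin III, a protein that binds chromogranin A to the granule membrane, was 7.12, 7.57, 7.28 and 6.88 in controls and 6.43, 6.32 and 7.14 in β-CB1R-/- mice (difference -0.58, SE 0.27; 95% interval -1.21 to 0.05). Here too β-CB1R-/- mice 1 and 2 lay below all controls, and mouse 3 among them.

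The zinc transporter gene *Slc30a8* was 6.88, 7.71, 7.28 and 6.99 in β-CB1R+/+ mice 1 to 4 and 6.44, 6.20 and 7.10 in β-CB1R-/- mice 1 to 3. It had the widest spread among controls (SD 0.37), with β-CB1R+/+ mouse 2 highest, and β-CB1R-/- mouse 3 lay above 2 of the 4 controls. The difference was -0.64 (SE 0.30; 95% interval -1.32 to 0.05; exact permutation p = 0.143, two-sided).

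**Figure D2:**
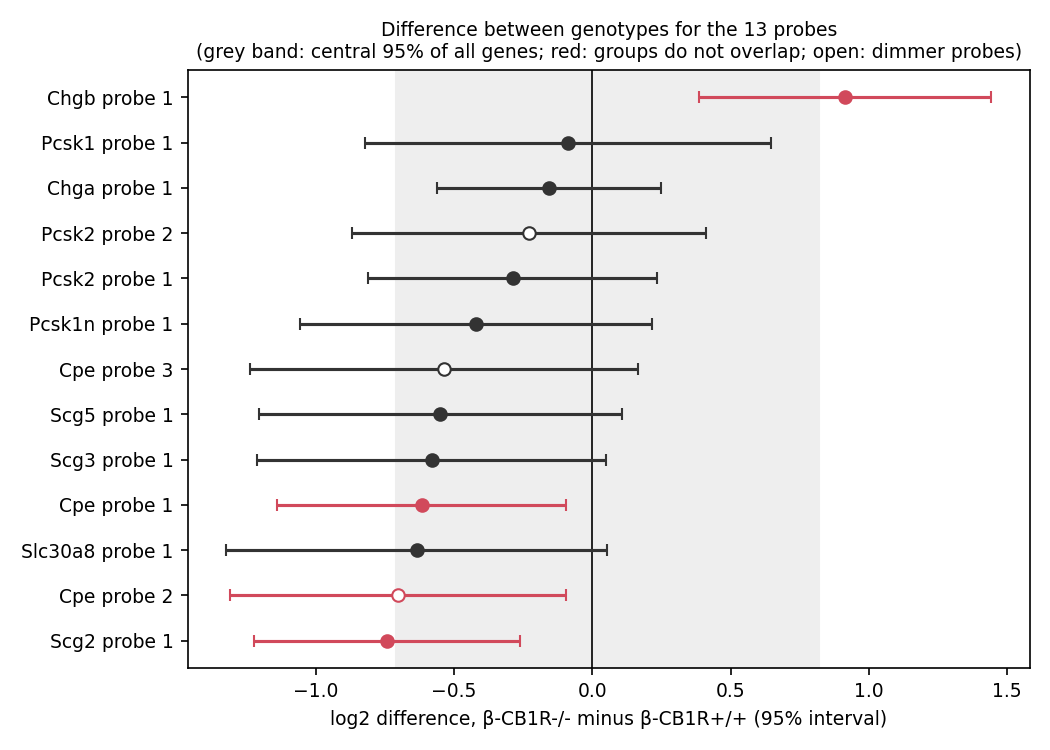
Log2 difference between genotypes (horizontal axis, β-CB1R-/- minus β-CB1R+/+) with its 95% interval from limma for the 13 probes, filled for the brightest probe of a gene, red where the groups do not overlap, over a grey band that holds the central 95% of all genes (-0.71 to 0.82). *Chgb* at 0.91 and *Scg2* at -0.74 lie outside the band, and the intervals of 7 of the 10 genes include 0.

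Cyclic AMP is known to act on several granule genes through the cyclic AMP response element, a short stretch of DNA bound by the CREB family, so the bases before the annotated starts were searched for its letters. The 250 bases before the start were read from RefSeq (GRCm38.p6) for 8 of the 10 genes; *Cpe* and *Slc30a8* were not in the table. The full form TGACGTCA, which reads the same on both strands, was found for 3 of the 8 genes (*Pcsk1*, *Chgb* and *Scg2*), where 1.77% of 27025 genes hold it. The short form TGACG, searched on both strands and contained on each strand of the full form, was found for 7 of the 8 (not *Pcsk1n*), where 19.8% of genes hold it. The windows of *Chgb* and *Scg2* are shown because these granins held the full form at nearly the same distance from the start (positions -72 to -65 and -68 to -61, where -1 is the last base before the start) and differed between genotypes in opposite directions. *Chgb* is on chromosome 2 from 132781642 to 132795079 and *Scg2* on chromosome 1 from 79434366 to 79440026. Each window lies just outside the annotated gene, at chr2:132781392-132781641 (plus strand) for *Chgb* and chr1:79440027-79440276 (minus strand) for *Scg2*, and capitals mark the full form.
Chgb: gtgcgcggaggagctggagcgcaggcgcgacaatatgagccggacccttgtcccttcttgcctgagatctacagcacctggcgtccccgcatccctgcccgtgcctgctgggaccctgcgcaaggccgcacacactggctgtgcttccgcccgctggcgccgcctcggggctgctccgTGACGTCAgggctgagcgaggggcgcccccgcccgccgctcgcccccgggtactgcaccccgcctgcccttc
Scg2: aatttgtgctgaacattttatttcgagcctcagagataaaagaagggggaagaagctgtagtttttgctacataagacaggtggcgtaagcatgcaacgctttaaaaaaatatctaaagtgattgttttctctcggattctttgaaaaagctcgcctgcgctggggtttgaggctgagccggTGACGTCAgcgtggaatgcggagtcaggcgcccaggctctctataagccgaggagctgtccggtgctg
*Pcsk1*, whose means differed by only -0.09, held the full form at -78 to -71. RefSeq places its window inside the gene's span, and the same holds for the window of *Scg3*. The *Pcsk1* site stands here beside those of *Chga* and *Scg5*, which held the short form, in capitals, at -44 to -40 and -175 to -171. Their positions are chr13:75089768-75089797 (plus strand), chr12:102554886-102554912 (plus strand) and chr2:113829251-113829277 (minus strand).
Pcsk1: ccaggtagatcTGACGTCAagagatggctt
Chga: gggcggtcctaTGACGtaatttcctgg
Scg5: aaggaggtaaaTGACGttcataggggt
The genes that held the full form thus had differences of 0.91, -0.74 and -0.09, and those with the short form only had differences of -0.16 to -0.58. These matches describe letters, and binding was not measured. Of the genes of the CREB family, *Crem* differed by -0.15 (SE 0.29) and *Atf1* by 0.07 (SE 0.17). A second *Crem* probe differed by -0.23 (SE 0.38). A second *Atf1* probe differed by 0.57 (SE 0.41), with control mouse 2 (-1.44) far below the other mice. The brightest *Creb1* probe differed by 0.52 (SE 0.68), which rests on control mouse 1 (-4.61, far below the other controls), and a second *Creb1* probe by -0.25 (SE 0.28).

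**Figure D3:**
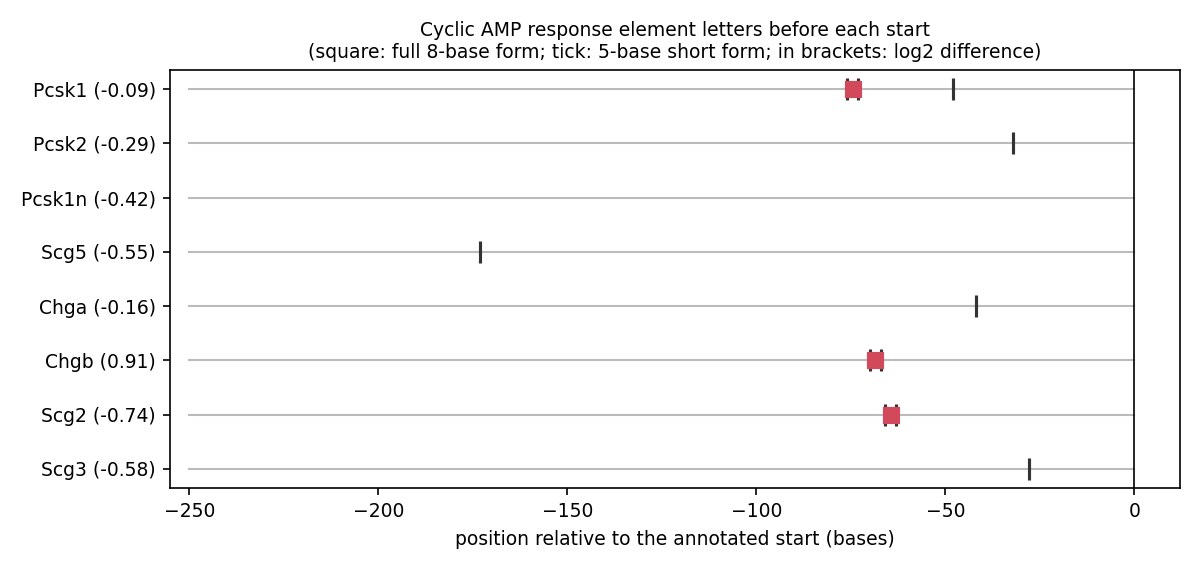
Positions of the letters TGACGTCA (red squares) and TGACG (ticks, either strand) in the 250 bases before the annotated start (horizontal axis, bases) of 8 genes, with the log2 difference between genotypes in brackets. The 3 squares lie between -78 and -61, in genes with differences of -0.09, 0.91 and -0.74. The windows of *Pcsk1* and *Scg3* lie inside the annotated gene.

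The lower means came mostly from 2 of the 3 β-CB1R-/- mice. Relative to each gene's mean over the 7 mice, the median deviation of the 9 genes other than *Chgb* was -0.50 in β-CB1R-/- mouse 1 and -0.62 in mouse 2 but 0.18 in mouse 3. In controls 1 to 4 it was 0.07, 0.50, 0.32 and -0.07. β-CB1R-/- mice 1 and 2 were each below every control in 8 of the 10 genes, where 29.2% and 31% of all genes were below every control in these mice. Mouse 3 was below every control in 3 of the 10 (*Cpe*, *Chga* and *Scg2*), beside 19.9% of all genes. The counts of mice 1 and 3 include *Chga*, whose order is not read. β-CB1R-/- mouse 2 had the lowest value of all in 6 genes and mouse 1 in 3 (*Chga* among them), beside 21.4% and 17.2% of all genes, and control mouse 2 had the highest in 5, beside 26.5%. The SD was larger in β-CB1R-/- mice for 9 of the 10 genes (all but *Chga*), as for 59.7% of all genes. Within each genotype *Chgb*, like most of the others, was highest in control mouse 2 and in β-CB1R-/- mouse 3, and it stood apart in its difference between genotypes. Without β-CB1R-/- mouse 3, 7 of the 10 genes had an unadjusted p under 0.05 in limma in place of 3, while the share of all genes rose from 3.9% to 10.1%, and none of the 10 passed the adjusted threshold.

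Within a mouse, *Chgb* was compared with each of the other 9 genes as a log2 ratio, which takes out any factor that scales the probes of an array alike. The ratio was higher in every β-CB1R-/- mouse than in every control for all 9 genes, by 1.00 (*Pcsk1*) to 1.66 (*Scg2*), or 2.00-fold to 3.15-fold. The ratio of *Chgb* to 58.4% of all other genes separated in that way, since *Chgb* itself did. For *Cpe* the ratio, relative to its mean over the 7 mice, was -0.77 to -0.55 in controls and 0.65 to 1.19 in β-CB1R-/- mice.

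**Figure D4:**
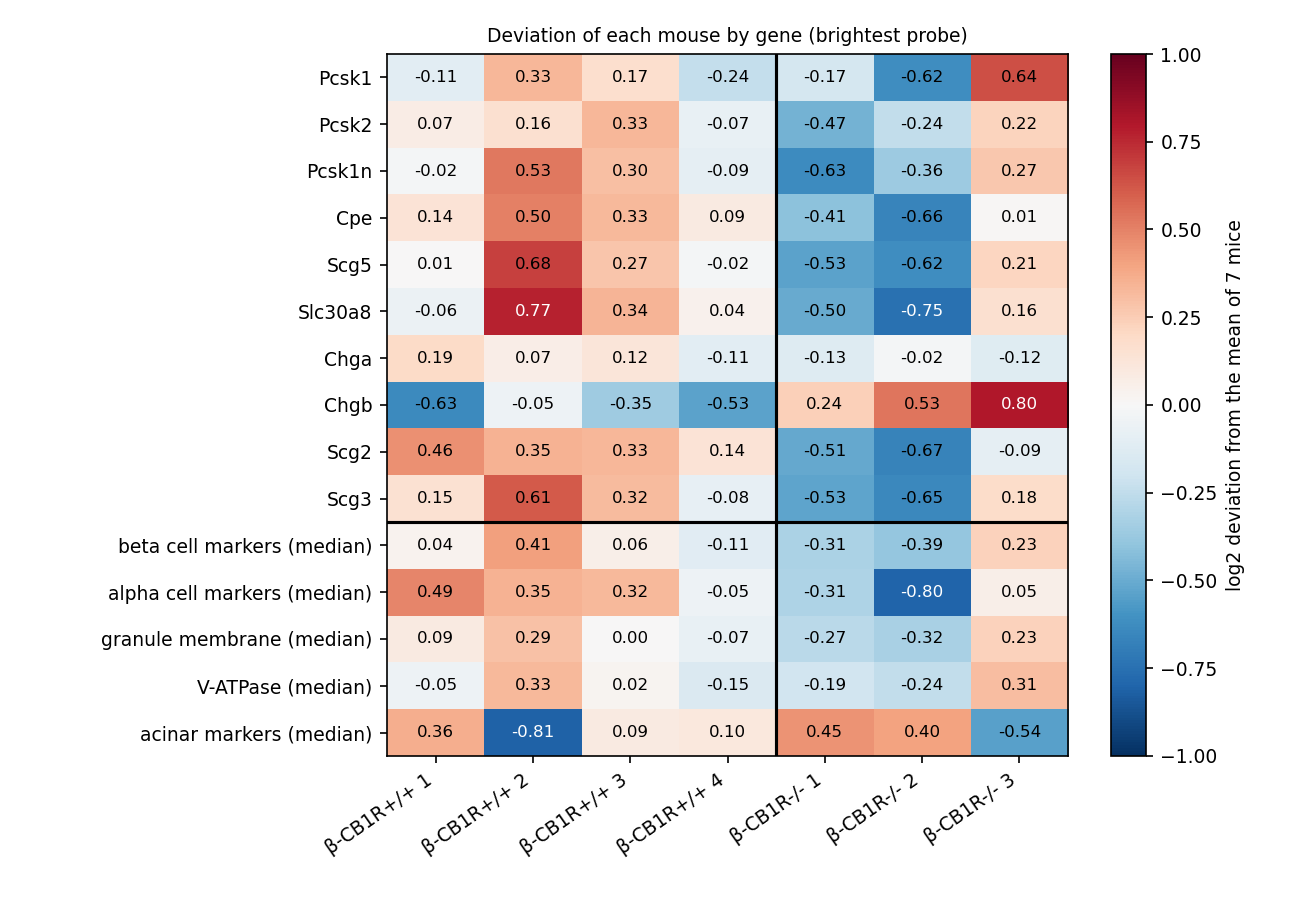
Log2 deviation of each mouse (columns) from the mean of the 7 mice for the brightest probe of the 10 genes (rows above the line), and the median deviation over 5 gene lists (rows below the line). β-CB1R-/- mice 1 and 2 are blue, hence lower, in all rows but *Chgb* and the acinar markers, and β-CB1R-/- mouse 3 resembles the controls in most rows.

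Cell type markers were read in the same way, because in islet RNA fewer cells of a type and less RNA per cell cannot be told apart. The 9 beta cell markers had 8 lower means (median difference -0.14), and their median deviations were 0.04, 0.41, 0.06 and -0.11 in controls and -0.31, -0.39 and 0.23 in β-CB1R-/- mice, the same division of mice as the granule genes. Their summed intensity, which is carried by the hormones, divided mice otherwise: relative to the 75th percentile it was 3852 to 5122 in controls and 4630, 4646 and 3157 in β-CB1R-/- mice 1 to 3. The unscaled intensity of *Ins1* ran only from 493506.5 to 599084.7 while the 75th percentile ran from 235.5 to 362.1, highest in β-CB1R-/- mouse 3, so no order of mice is read from these sums. Of 6 alpha cell markers 5 had lower means (median -0.67). By limma, *Irx1*, *Irx2* and *Ttr* had an unadjusted p under 0.05, as did 3.9% of all genes, while a dimmer *Irx2* probe differed by 0.15 (SE 0.37). The summed intensity of the alpha cell markers was 966.8 to 1292 in controls and 770.7 to 930.3 in β-CB1R-/- mice, without overlap. *Gcg*, which carries most of this sum, overlapped between groups (-0.36, SE 0.20). The sum is divided by the same 75th percentile, so its separation is not read either. Exocrine acinar markers were abundant in all islet samples, with sums of 13440 to 25810 in controls and 13940 to 27560 in β-CB1R-/- mice, and 17 of 18 had higher means (median 0.17). Their order among mice was nearly the reverse of the granule genes: the median deviation was lowest in control mouse 2 (-0.81) and β-CB1R-/- mouse 3 (-0.54) and highest in β-CB1R-/- mice 1 (0.45) and 2 (0.40). The unscaled intensity of some acinar markers, such as *Try4* (221109.1 to 289579.4) and *Ctrb1* (387604.5 to 538496.6), varied less than the 75th percentile, which limits this order. Others varied more, such as *Ptf1a* (543.1 to 2764.4). Stromal markers (7 of 7 higher, median 1.01, sums of 4.781 to 60.93 against 16.82 to 28.24) and macrophage markers (6 of 6 higher, median 0.45, sums of 42.64 to 56.06 against 55.61 to 88.87) were also higher on average by their brightest probes. Among macrophage markers, dimmer probes of *Itgam* (-0.53, SE 0.26) and *Adgre1* (-0.09) were lower, and those of *Csf1r* (0.12 and 0.30) were higher. No defining marker of these lists was missing from the comparison, no gene of them passed the adjusted threshold, and their part in the granule gene differences was not tested. With every array centred on the beta cell markers, a choice made after seeing the data, *Chgb* differed by 1.17, *Scg2* by -0.49, *Cpe* by -0.36, *Slc30a8* by -0.38, *Scg3* by -0.33, *Scg5* by -0.30, *Pcsk1n* by -0.17 and *Pcsk2* by -0.034, against a median of 0.24 over all probes, and 7 of the 10 genes were lower.

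The prohormones that these enzymes cut did not share one direction. Of 11 compared, 3 had a higher and 8 a lower mean (median -0.35), and no groups separated. The beta cell products *Ins1* (-0.11, SE 0.23), *Ins2* (0.07, SE 0.26) and *Iapp* (-0.07, SE 0.23) differed by less than their errors, and their order among mice is not read, since these near-top intensities varied less than the scaling did. *Gcg* (-0.36), *Sst* (-0.53, SE 0.25) and *Ppy* (0.54, SE 0.61) are the products of alpha, delta and PP cells, and *Ppy* was highest in control mouse 4.

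Of 7 other convertases 3 had higher and 4 lower means (median -0.07): *Furin*, which acts in the Golgi, differed by 0.26 (SE 0.22), *Pcsk5* by 0.01 (a dimmer probe by -0.63, SE 0.34), *Pcsk6* by 0.13 and *Pcsk7* by -0.10. Of 10 other enzymes that trim or amidate peptides 5 were higher and 5 lower (median -0.02). Among them *Cpd*, a second carboxypeptidase, differed by -0.22 (SE 0.31), *Pam*, which amidates peptide ends, by -0.36 (SE 0.36), and *Qpct*, which cyclises N-terminal glutamine, by -0.51 (SE 0.24) without overlap. Its relative *Qpctl* was higher without overlap (0.35, SE 0.17), and *Cpm*, a carboxypeptidase of the cell surface, was lower without overlap (-0.33, SE 0.20). Of 5 other granin-like genes 3 were higher and 2 lower (median 0.07), with *Vgf* at 0.35 (SE 0.30) and *Nucb2*, the nesfatin precursor, at 0.56 (SE 0.29).

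Genes of the granule membrane were lower on average, 17 of 20 (median -0.22), with none separated. *Ptprn2*, which encodes the granule membrane protein phogrin, was 2.23, 2.69, 2.51 and 1.82 in controls and 1.00, 0.18 and 2.53 in β-CB1R-/- mice, so that mice 1 and 2 were far below the controls and mouse 3 among the highest (difference -1.07, SE 0.52). A second probe differed by -1.23 (SE 0.57), but the dimmest one by -0.28 (SE 0.30), with β-CB1R-/- mouse 2 (-0.08) inside the control range of -0.23 to 0.79. Its relative *Ptprn* differed by 0.26 (SE 0.22), and *Hid1*, which acts in granule formation, by -0.31 (SE 0.24). V-ATPase subunits, which acidify the granule, had 13 of 17 lower means (median -0.13), and *Atp6v0b* was higher without overlap (0.25, SE 0.17). Of 21 zinc transporter and metallothionein genes compared, 11 were higher and 10 lower (median 0.00). *Slc30a1*, the zinc exporter of the cell surface, was higher in every β-CB1R-/- mouse (0.60, SE 0.22; exact permutation p = 0.0286, limma adjusted p = 0.999). *Slc39a10*, a zinc importer, was lower in every β-CB1R-/- mouse (-0.55, SE 0.30; exact permutation p = 0.0286, limma adjusted p = 0.999). Metallothionein genes *Mt1* and *Mt2* differed by 0.68 (SE 0.42) and 0.95 (SE 0.54), and *Slc30a5* and *Slc30a7* by -0.17 and -0.21. Dimmer *Slc30a7* probes differed by -0.32 (SE 0.21) and 0.24 (SE 0.25). Of 13 transcription factors known to act on granule genes 10 were lower (median -0.15), with *Neurod1* at -0.38 (SE 0.39), *Insm1* at -0.47 (SE 0.29) and *St18* at -0.62 (SE 0.26, unadjusted p = 0.0409 in limma). No gene of these lists passed the adjusted threshold in either direction. *Fos*, an immediate-early gene, was high in control mice 3 and 4 and β-CB1R-/- mouse 2 (6.31, 5.34 and 5.84) and from -1.59 to 0.75 in the others, a division other than that of the 10 genes.

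**Figure D5:**
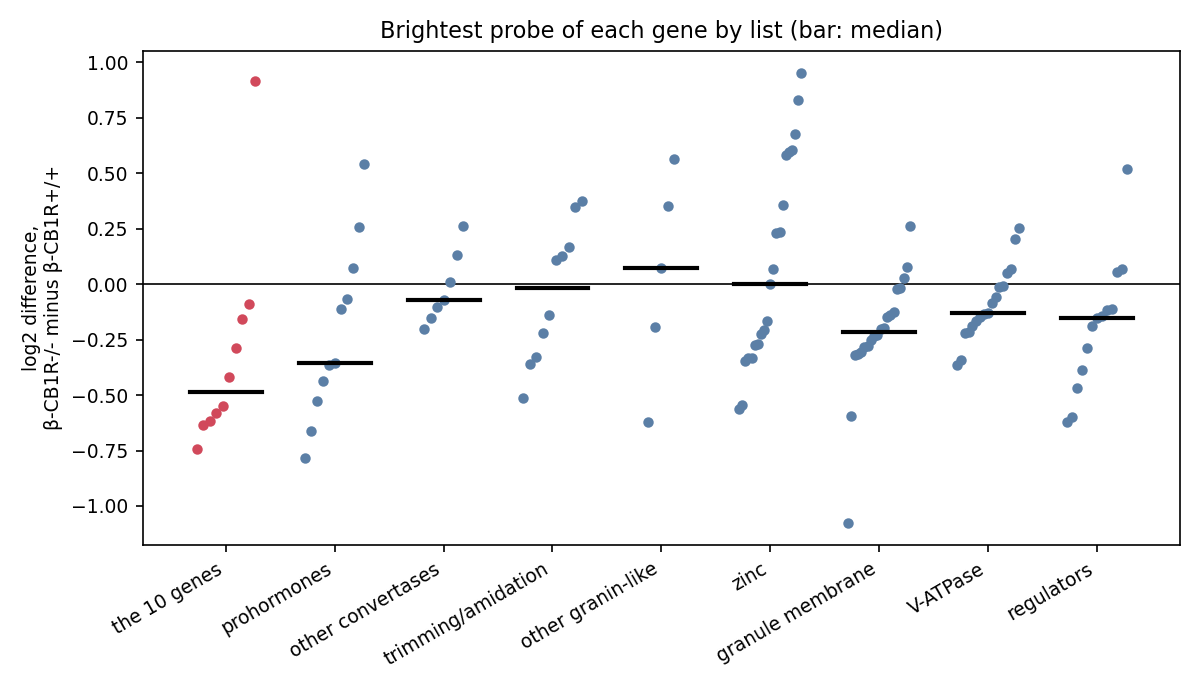
Log2 difference between genotypes (vertical axis, β-CB1R-/- minus β-CB1R+/+) of the brightest probe of each gene (points, sorted within a list) for the 10 genes (red) and 8 related lists (blue), with the list's median as a bar. The 10 genes have a median of -0.49 with *Chgb* standing apart at 0.91, and the medians of the other lists run from -0.35 to 0.07.

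Across the 7 mice, *Scg5*, *Slc30a8* and *Scg3* followed one another closely, with Pearson r = 0.991 between *Scg5* and *Slc30a8* and r = 0.986 between *Scg5* and *Scg3*; among all genes compared these were the 6th and the 28th most like *Scg5*. *Pcsk2* and *Pcsk1n* gave r = 0.928, and *Scg5* and *Chgb* gave r = -0.273. The genes most like *Scg5* were *Zfp652* (r = 0.996), *Pgbd5* and *Hdac6*, those most like *Pcsk1n* were *Pogz* (r = 0.996), *Pigv* and *Klhl32*, those most like *Pcsk2* were *Dctn3* (r = 0.986), *Lime1* and *Slx4ip*, and those most like *Pcsk1* were *4932438A13Rik* (r = 0.983), *Gm10433* and *2610206C17Rik*. These correlations rest on 7 mice, share the array scaling and the difference between genotypes, and were picked as the highest of 16959 genes, so they are a description only.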

How the data were processed

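Islets were hand-picked after collagenase digestion, and RNA of 7 mice was hybridised to 8 Agilent arrays on 1 slide, with the genotypes on opposite sides, so that a side effect of the slide cannot be told apart from genotype. The deposited intensity of each spot was background-subtracted and detrended by the authors' scanner software (Feature Extraction 11.5.1.1). The deposited score of each spot is a Z score of the log10 intensity and was used as an alternative. From there, the log2 intensity was taken relative to the 75th percentile of non-control spots, without spots marked non-uniform or outliers and with the mean over a probe's spots. A probe entered the fit when 3 or more of 7 mice had it well above background (39165 of 55681). Genotypes were compared with limma 3.58.1 in R 4.3.3 (two-sided, Benjamini-Hochberg over all probes, threshold 0.05), and single genes also by exact permutation of the mice. Scripts were tested on simulated data. The number of mice limits the precision.

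Symbols come from the RefSeq annotation of GRCm38.p6 (28026 probes matched). The arrays' header names mm9, so coordinates are those of RefSeq. The genes and lists were chosen with earlier results of these data known. All probes of the 10 genes are named, with *Cnr1*, a fixed set of related genes and the 3 genes most like each convertase and partner. *Slc30a1*, *Slc39a10*, *Atp6v0b*, *Cpm*, *St18*, *Qpctl*, *Creb1*, *Atf1* and the alpha cell markers *Irx1*, *Irx2* and *Ttr* were named after their values were seen. So were the acinar markers *Try4*, *Ctrb1* and *Ptf1a* and the macrophage markers *Itgam*, *Adgre1* and *Csf1r*. Alternatives were the normexp background (on the median spot signal in place of the planned mean, offset 50), quantile normalization, the deposited scores, other filters, each repeat array alone, an intensity trend, the replicate number as a block, the methods' t-test, each mouse left out, and, added later, centring on beta cell markers.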

Additional observations from a re-analysis of the deposited data

How the results depend on the processing

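None of the 13 probes passed the adjusted threshold under any alternative run. The 9 genes with lower means became 8 with normexp and without control mouse 2 or β-CB1R-/- mouse 2, and 7 with centring on beta cell markers, where 19.9% of all genes were lower. The number of genes with an unadjusted p under 0.05 was 3, beside 3.9% of all genes, and became 5 with normexp (3.6% of all genes), 6 with the deposited Z scores (3.99%) and 1 (*Scg2*) with quantile normalization (4.67%). With each mouse left out it was 2 to 7, beside 2.14% to 10.1% of all genes, with both the 7 and the 10.1% without β-CB1R-/- mouse 3. *Chgb* stayed higher (0.75 to 1.17 over the processing alternatives on the log2 scale, 0.78 to 1.06 with each mouse left out; adjusted p 0.226 to 1), and *Scg2* (-0.95 to -0.49; -0.91 to -0.62) and *Cpe* (-0.84 to -0.36; -0.80 to -0.46) stayed lower. The differences that changed sign were small: *Pcsk1* (-0.43 to 0.20 with each mouse left out), *Pcsk2* with normexp (0.11), and, with centring on beta cell markers, *Pcsk1* (0.17), *Chga* (0.10) and the dimmer *Pcsk2* probe (0.026). That centring moved the median of all probes from -0.02 to 0.24, and relative to it *Pcsk1* was at -0.07, *Chga* at -0.14 and *Chgb* at 0.93. For the other changes of sign and count the cause was not tested.

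With the replicate number as a block, *Chgb* differed by 0.87 and *Scg2* by -0.80, and 0 of the 13 probes passed. These 2 genes, but not *Cpe*, had an unadjusted limma p under 0.05, beside 4.38% of all genes. The deviations of same-numbered mice had correlations of 0.42, -0.27 and -0.06, and whether these mice share more than a number was not tested. Over all probes, 43 passed the adjusted threshold, against 0 with the block, by the methods' t-test or without β-CB1R-/- mouse 2, 5 without control mouse 3 or β-CB1R-/- mouse 3, and 15 to 24 in 5 other settings. A block for the slide was not run, as there was 1 slide and 1 scan.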
